A study of Bos taurus with 6 samples.

Results

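The hyaluronan and cumulus matrix genes are HAS2, HAS3, PTX3, TNFAIP6, VCAN, CD44, HAPLN1, HMMR and HYAL2. They were chosen by name, as genes of the matrix that cumulus and granulosa cells make at ovulation, and each was read from the probe that carries its symbol alone in the platform table. All 9 genes were found, with 1 probe each, among 24415 probes and 18010 genes with a probe of a single symbol. The study tested the effect of blocking PI3K, the kinase upstream of AKT, on gene expression in bovine granulosa cells. Cells were drawn from follicles under 6 mm of abattoir ovaries, frozen, thawed and grown on collagen with FSH and IGF1, which both groups received. On day 2 the cells received 50 µM of the PI3K inhibitor LY294002 (3 samples) or the vehicle DMSO (3 samples), and most of the inhibitor medium was replaced after 2 h. The methods name a time shortly after this change and day 4 for collecting cells, and do not state which applies to the array RNA. The ages of the cattle are not given in the sources used here. The methods describe replicates as cells collected on different days, but no label ties a day to an array. The p-values therefore measure the spread between these 6 samples.

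Before ovulation, cumulus cells around the oocyte secrete hyaluronan, a long sugar chain, into the space between them, and the cumulus expands. Hyaluronan is spun out by synthases of the plasma membrane and cut by hyaluronidases. It is held together by proteins: TNFAIP6 moves the heavy chains of inter-alpha-trypsin inhibitor onto the chain, PTX3 multimers tie these heavy chains together, and link proteins fix the proteoglycan versican to it. Cells bind the matrix through receptors such as CD44. In follicles, the LH surge and the EGF-like ligands released after it are the known triggers. The cultured cells of this study received FSH and IGF1 and no LH.

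Of the 9 genes, PTX3 and CD44 rose with LY294002 and 0 fell. The words rose and fell are kept for genes that met 2 thresholds taken from the methods, a Benjamini-Hochberg adjusted p under 0.05 over all probes in limma's moderated test and a change of 1.4-fold or more. Unadjusted p-values under 0.05 were found for 4 higher genes and 1 lower gene, against 13.7% of all probes as higher and 13.8% as lower, and without variance moderation 0 fell. Over all probes, 5.96% passed both thresholds, 2.58% as higher and 3.38% as lower. These shares are also the background for the counts of called genes in the lists below. Whether the 9 genes or the lists differ from this background was not tested. In 5 of the 9 genes, 4 higher and 1 lower, no LY294002 value fell among the DMSO values, against 32.7% of all probes. The median log2 ratio of the 9 genes was 0.17, compared with 0.02 over all probes.

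**Figure D1:**
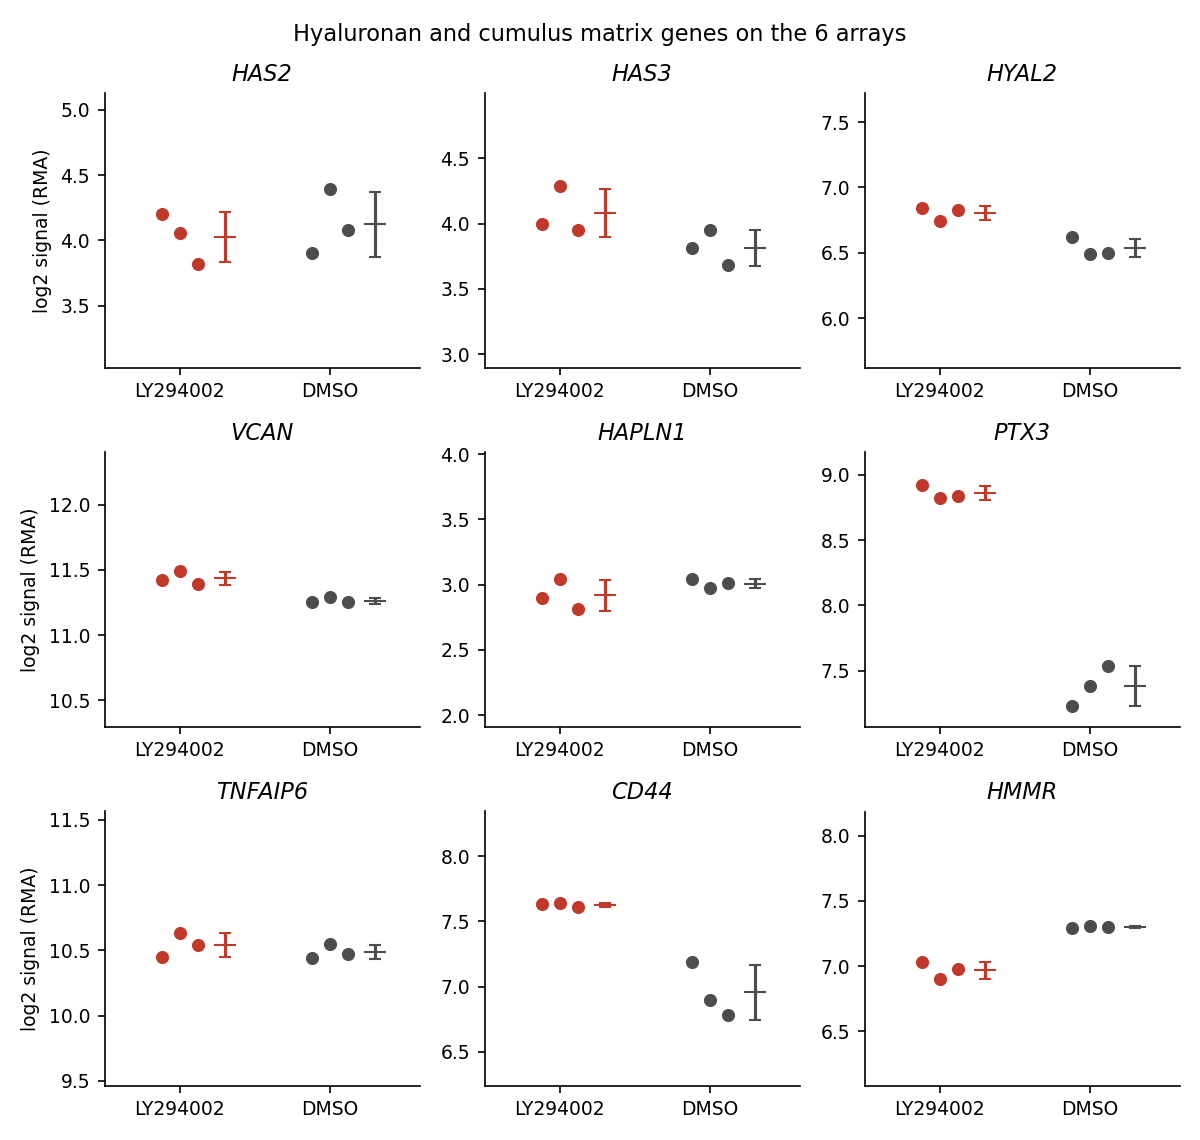
RMA log2 signal (y axis, each panel spanning the same 2.1 log2 units) of the 9 genes in LY294002 (red, left) and DMSO (grey, right) samples, with 1 point per array and the mean ± SD (n = 3) beside the points. PTX3 and CD44 are higher in every LY294002 sample than in any DMSO sample, HMMR is lower in every one, and the points of HAS2, TNFAIP6 and HAPLN1 intermingle.

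Signals are given on the log2 scale of RMA, a method that subtracts background, brings the arrays to one distribution and summarizes the features of each transcript cluster. The log2 ratio is the mean log2 signal in LY294002 minus that in DMSO. Signals of different probes depend on their sequences, so levels are not ranked between genes. The 12 granulosa cell markers had signals between 4.57 and 11.74, the 8 markers of stroma and fibroblasts between 6.22 and 11.97, and the 7 oocyte markers between 1.51 and 4.46. Of the 12 granulosa cell markers, NR5A2 and CYP11A1 rose and CYP19A1, AMH, AMHR2 and FOXL2 fell. In the other lists, PDGFRA rose and INSL3 fell of 6 theca markers, KRT8 fell of 7 markers of the surface epithelium (0 without variance moderation), and 0 of 5 smooth muscle and 0 of 7 oocyte markers passed. All 7 epithelial markers had a lower mean with LY294002. Their signals summed on the linear scale to between 208 and 216 in LY294002 and between 252 and 281 in DMSO. CDH1, 1 of these 7, had a log2 ratio of -0.48 (adjusted p = 0.0329), under 1.4-fold. In such a bulk sample, fewer cells of a type and less RNA per cell cannot be told apart.

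PTX3, the long pentraxin that cross-links the heavy chains on hyaluronan, had the largest difference of the group. Its log2 signals were 8.92, 8.82 and 8.84 in the LY294002 samples and 7.23, 7.38 and 7.54 in the DMSO samples. The lowest LY294002 value exceeded the highest DMSO value by 1.28, and the spread was smaller with LY294002 than with DMSO (SD 0.05 against 0.16). The mean was 8.86 ± 0.05 in LY294002 and 7.38 ± 0.16 in DMSO (SD, n = 3 each). PTX3 was thus 2.78-fold higher with LY294002, with a 95% confidence interval of 2.39 to 3.24 (log2 ratio 1.48, SE 0.09, adjusted p = 0.000593 with limma). Only 16 of the 24415 probes had a larger rise. The call held under every alternative tried, and the log2 ratio lay between 1.4 and 1.56 when single arrays were left out.

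TNFAIP6, which transfers the heavy chains that PTX3 then binds, did not follow PTX3. Its log2 signals were 10.45, 10.63 and 10.54 in LY294002 samples and 10.44, 10.55 and 10.47 in DMSO samples, so the groups overlapped. The fold change was 1.04, with a 95% confidence interval of 0.919 to 1.17 (adjusted p = 0.706 with limma). The interval of TNFAIP6 thus stops short of the 1.4-fold threshold on both sides, and it does not meet that of PTX3. The heavy chains themselves come from genes of the ITIH family, which the liver expresses and serum carries into the follicle. That each ITIH gene, ITIH4 included, supplies such chains is not established here. ITIH1, ITIH2, ITIH3 and ITIH5 had signals between 2.56 and 3.88 and did not pass. ITIH4 was lower in all LY294002 samples (4.16, 4.27 and 4.11) than in the DMSO samples (4.53, 4.44 and 4.67), with a log2 ratio of -0.37 (SE 0.08, adjusted p = 0.0354), under 1.4-fold.

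CD44, the main cell surface receptor of hyaluronan, was the other gene that rose. Its log2 signals were 7.63, 7.64 and 7.61 in LY294002 samples and 7.19, 6.90 and 6.78 in DMSO samples. The groups were 0.42 apart at their nearest values, and the DMSO samples spread over 0.41, compared with 0.03 in LY294002. The means were 7.63 ± 0.02 in LY294002 and 6.96 ± 0.21 in DMSO (SD, n = 3 each), a fold change of 1.59 with a 95% confidence interval of 1.33 to 1.91 (log2 ratio 0.67, SE 0.11, adjusted p = 0.0117 with limma). The lower bound lies under 1.4-fold. DMSO replicate 1 had the highest control value, and the log2 ratio was 0.79 without it (adjusted p = 0.00721). When each other array was left out, the adjusted p stayed under 0.05 but reached 0.0478.

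CD44 and PTX3 are also expressed by leukocytes and fibroblasts. Of 10 leukocyte markers, 0 rose and 0 fell with limma or without variance moderation, and unadjusted p-values under 0.05 were found for 0 higher and 2 lower markers. Their signals summed on the linear scale to between 201 and 224 in LY294002 samples and between 199 and 238 in DMSO samples. The defining marker PTPRC had log2 signals of 3.60, 3.70 and 3.19 in LY294002 and 3.77, 3.47 and 3.39 in DMSO, within the range of the oocyte markers. Of the 8 stromal markers, COL1A2 rose and PDGFRB and POSTN fell. The stromal sum lay between 8831 and 9557 in LY294002 and between 9861 and 10284 in DMSO, and without POSTN between 7352 and 7905 in LY294002 and between 7305 and 7637 in DMSO. The groups thus did not overlap in the sum of all 8 markers but did in that of the other 7. Only POSTN, a marker that fell, was left out in this way, while COL1A2, which rose, was kept. Of the 8 markers, 6 had a lower mean with LY294002 and 2 a higher one. Among stromal markers that did not pass, THY1 had a log2 ratio of 0.49 (adjusted p = 0.0862), DCN one of -0.29 (0.0454) and COL1A1 one of -0.17 (0.126). Of the 8 markers, 2 higher and 4 lower ones had unadjusted p-values under 0.05. The part of stromal cells in the differences of CD44 and PTX3 was not tested.

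Over the 6 arrays, the pattern of PTX3 was most like that of CHST15, a sulfotransferase of chondroitin sulfate (Pearson's r = 0.9996), followed by RANBP9 (0.9993) and CSRP1 (0.999). That of CD44 was most like PAXBP1 (0.9985), DPY19L4 (0.996) and SOWAHC (0.9958). A probe can be alike in pattern and small in size, as RANBP9 was with a log2 ratio of 0.21. Such likeness was common, since 888 other probes with a single symbol correlated above 0.95 with PTX3 and 402 with CD44.

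HMMR encodes a hyaluronan receptor that also sits on the mitotic spindle. Its log2 signals were 7.03, 6.90 and 6.98 in LY294002 samples and 7.29, 7.31 and 7.30 in DMSO samples. Every LY294002 value was lower than every DMSO value, by at least 0.26. HMMR was 1.26 times lower with LY294002 (log2 ratio -0.33, SE 0.06, 95% confidence interval -0.48 to -0.18). The adjusted p of 0.0194 with limma was under 0.05, but the difference did not reach 1.4-fold, so HMMR is not among the called genes. An adjusted p under 0.05 at any fold change was found for 3 of the 9 genes and for 13.3% of all probes. The adjusted p of HMMR was above 0.05 when any array but LY294002 replicate 1 was left out, at between 0.0531 and 0.0699.

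HMMR was set beside 20 mitosis genes, since its transcript is made by dividing cells. Of these, AURKA, CDC20 and PLK1 fell, 0 rose and 17 did not pass. Without variance moderation the counts were again 3 and 0, and unadjusted p-values under 0.05 were found for 12 lower genes and 0 higher ones, where 13.8% of all probes were lower and 13.7% higher. AURKA, a spindle kinase, had signals of 6.54, 6.41 and 6.49 in LY294002 and 7.30, 7.36 and 7.22 in DMSO (log2 ratio -0.81, SE 0.07, adjusted p = 0.00135). CDC20, an activator of the anaphase-promoting complex, had a log2 ratio of -0.55 (adjusted p = 0.00731), and the kinase gene PLK1 one of -0.55 (adjusted p = 0.0111). The proliferation marker MKI67 had a log2 ratio of -0.39 (adjusted p = 0.0286), under 1.4-fold. The median over the mitosis genes was -0.22, compared with -0.33 for HMMR and 0.02 over all probes. The share of dividing cells was not measured, and its part in the difference of HMMR was not tested.

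**Figure D2:**
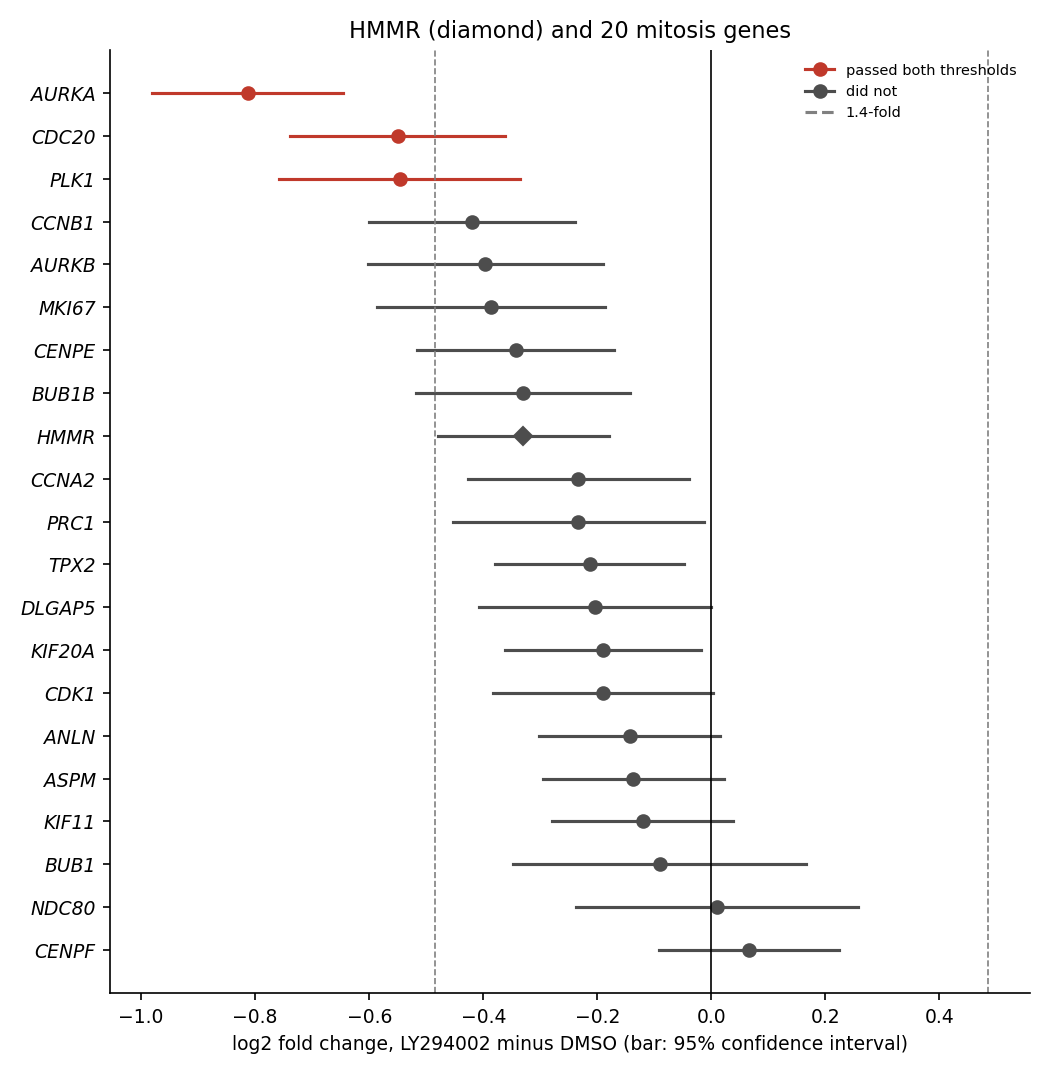
Log2 fold change, LY294002 minus DMSO (x axis), of HMMR (diamond) and 20 mitosis genes, with 95% confidence intervals as bars and the 1.4-fold threshold dashed. HMMR at -0.33 lies among the mitosis genes, of which 18 are below 0 and 3 (red) passed both thresholds.

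VCAN encodes versican, the large proteoglycan of the cumulus matrix that binds hyaluronan at one end. Its log2 signals were 11.42, 11.49 and 11.39 in LY294002 samples and 11.25, 11.29 and 11.25 in DMSO samples. The groups did not overlap, but they lay only 0.10 apart. The fold change was 1.13, with a 95% confidence interval of 1.02 to 1.24 (adjusted p = 0.125 with limma). With an intensity trend and robust estimation the adjusted p was 0.00376, which still leaves VCAN far under 1.4-fold. HAPLN1, the link protein that fastens versican to hyaluronan, had signals of 2.90, 3.04 and 2.81 in LY294002 samples and 3.04, 2.97 and 3.01 in DMSO samples. The groups overlapped, and the fold change was 0.94 with a 95% confidence interval of 0.826 to 1.07 (adjusted p = 0.528). VCAN and HAPLN1 are next to each other in the bovine gene order, with 0 other protein-coding genes between them in the RefSeq annotation.

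The enzymes of the hyaluronan chain itself showed small differences. HAS2, the synthase that cumulus cells use in mice and cattle, had log2 signals of 4.20, 4.06 and 3.82 in LY294002 samples and 3.90, 4.39 and 4.08 in DMSO samples. The groups overlapped, with a log2 ratio of -0.10 (SE 0.15, 95% confidence interval -0.46 to 0.27, adjusted p = 0.748). HAS3, a further synthase, had signals of 4.0, 4.29 and 3.95 in LY294002 and 3.81, 3.95 and 3.68 in DMSO. The highest DMSO value equalled the lowest LY294002 value, and the log2 ratio was 0.27 (SE 0.12, 95% confidence interval -0.01 to 0.55, adjusted p = 0.202). The signals of HAS2, HAS3 and HAPLN1 lay within the range of the 7 oocyte markers. The top of that range came from NLRP5 alone (4.17 to 4.46). The other oocyte markers reached at most 3.65, and every HAS2 and HAS3 value was above that. No detection call was used here, so it was not established that the probes of HAS2, HAS3 and HAPLN1 measured transcript above background. A difference could be understated there. The same limit holds for other probes with signals in that range, among them those of ITIH1, ITIH2, ITIH3, ITIH5, CTSL and AREG. The LY294002 signals of ITIH4, LYVE1 and ADAMTS20 lay there as well.

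HYAL2, a hyaluronidase anchored at the cell surface that cuts long chains, had log2 signals of 6.84, 6.74 and 6.83 in LY294002 samples and 6.62, 6.49 and 6.50 in DMSO samples. All LY294002 values were higher, by at least 0.12. The fold change was 1.2, with a 95% confidence interval of 1.07 to 1.35, and the adjusted p was 0.0505. Over the alternatives it lay between 0.0195 and 0.142, and 1.4-fold was not reached in any. The adjusted p was above 0.05 in every fit without 1 array and with the replicate number as a block (0.107). It was also above 0.05 without variance moderation (0.0573) and with arrays centred on medians (0.064). It was under 0.05 with an intensity trend and robust estimation (0.0195), array weights (0.0481) or quantile normalization (0.0379). The same held without the dimmest 25% of probes (0.0269) and with only probes of 1 symbol (0.034). HYAL1, the lysosomal hyaluronidase next to HYAL2 in the gene order, had a log2 ratio of 0.26 (adjusted p = 0.12) on its brighter probe and of 0.18 (adjusted p = 0.184) on the other. Of the 7 genes that did not pass, 6 had 95% confidence intervals wholly within 1.4-fold in either direction. HAS3 was the exception. The lower log2 bounds of HMMR (-0.48) and HAS2 (-0.46) came close to the threshold, which is 0.49 in size. HAS2 and HAPLN1 are among the 6, and their probes were not shown to measure transcript above background.

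**Figure D3:**
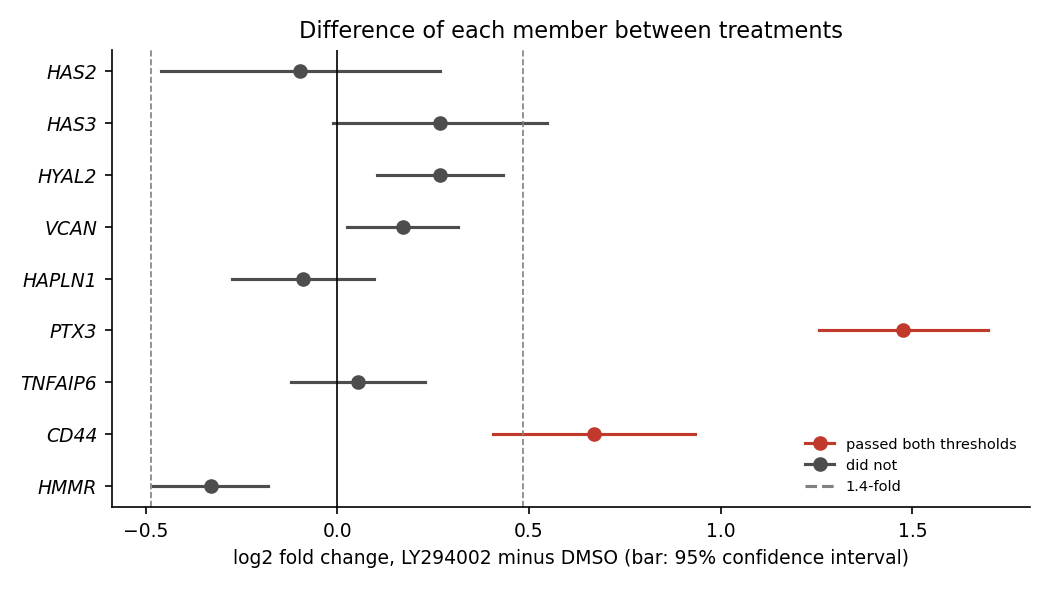
Log2 fold change, LY294002 minus DMSO (x axis), of the 9 genes with 95% confidence intervals as bars, a line at 0 and the 1.4-fold threshold dashed. PTX3 at 1.48 and CD44 at 0.67 (red) passed both thresholds, and the interval of HAS3 is the only one of the other genes that crosses a dashed line.

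Of 15 other genes of hyaluronan metabolism, CEMIP rose and LYVE1 fell, and the median log2 ratio of the 15 was 0.15. CEMIP, a hyaluronan-binding protein needed for the breakdown of hyaluronan outside the lysosome, had log2 signals of 8.45, 8.42 and 8.49 in LY294002 samples and 6.90, 7.01 and 6.82 in DMSO samples. It rose with a log2 ratio of 1.54 (SE 0.07, adjusted p = 0.00023), which is 2.91-fold. LYVE1, a hyaluronan receptor of lymphatic endothelium and some macrophages, had signals of 4.29, 4.40 and 4.01 in LY294002 and 5.48, 5.74 and 5.50 in DMSO, and fell with a log2 ratio of -1.34 (SE 0.12, adjusted p = 0.00165). The other 13 of the 15 genes with a probe did not pass. Neither CEMIP nor LYVE1 lost its call under any alternative. Among 7 endothelial markers, CLDN5 fell and 6 did not pass, while 0 fell without variance moderation. The endothelial sum on the linear scale was 127 to 145 in LY294002 and 151 to 166 in DMSO. VWF had signals of 5.69, 5.77 and 5.77 in LY294002 and 5.92, 5.89 and 5.98 in DMSO, below DMSO in every LY294002 sample (adjusted p = 0.106). Unadjusted p-values under 0.05 were found for 2 lower and 0 higher endothelial markers. KDR, PECAM1, EMCN, CDH5 and TEK overlapped between the groups, with signals between 1.76 and 4.29, and the part of endothelial cells in the difference of LYVE1 was not tested. UGDH, which makes the glucuronic acid building block, had a log2 ratio of -0.28 (adjusted p = 0.0639).

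Of 12 other genes listed as link proteins, hyalectans and heavy chain donors, 0 rose and 0 fell with limma or without variance moderation. Unadjusted p-values under 0.05 were found for 4 higher and 2 lower genes. The lowest adjusted p was that of HAPLN3, a link protein gene with signals of 5.90, 5.85 and 6.03 in LY294002 samples and 5.47, 5.60 and 5.51 in DMSO samples. Its log2 ratio of 0.40 (adjusted p = 0.019) stayed under 1.4-fold. ITIH4 and ITIH2 followed, ITIH2 with a log2 ratio of 0.25 (adjusted p = 0.11).

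A further list held 14 genes of matrix, cell surface and linker proteins related to versican or hyaluronan complexes. Binding to these complexes is not established here for each of them. Of the 14, FBLN1 rose and THBS1 and SRPX2 fell, and 11 did not pass. FBLN1, a matrix glycoprotein that binds the end of versican away from hyaluronan, had log2 signals of 8.76, 8.66 and 8.73 in LY294002 samples and 7.44, 7.65 and 7.74 in DMSO samples (log2 ratio 1.11, SE 0.09, adjusted p = 0.00124). THBS1, which encodes thrombospondin-1, a binding partner of TNFAIP6, had signals of 10.73, 10.87 and 10.65 in LY294002 and 11.44, 11.44 and 11.35 in DMSO (log2 ratio -0.66, SE 0.08, adjusted p = 0.00365). SRPX2 had a log2 ratio of -0.88 (SE 0.16, adjusted p = 0.0157), and its call was lost without variance moderation (adjusted p = 0.0676). It was also lost without LY294002 replicate 2, DMSO replicate 1 or DMSO replicate 2 (0.0524 to 0.0577). EZR, which encodes ezrin, a tether between CD44 and actin, had a log2 ratio of 0.38 (adjusted p = 0.0154), under 1.4-fold.

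Versican is cut during cumulus expansion by ADAMTS proteases. Of 9 measured genes of these proteases and their partners, ADAMTS1 and ADAMTS9 rose, ADAMTS20 and CTSL fell and 5 did not pass. ADAMTS1, which is induced at ovulation in mice, had signals of 8.26, 8.20 and 8.15 in LY294002 samples and 7.32, 7.42 and 7.41 in DMSO samples (log2 ratio 0.82, SE 0.07, adjusted p = 0.00115). ADAMTS9 had a log2 ratio of 0.63 (SE 0.09, adjusted p = 0.00658). ADAMTS20 had signals of 3.90, 4.13 and 4.28 in LY294002 and 5.11, 5.17 and 5.02 in DMSO, a log2 ratio of -1.0 (SE 0.11, adjusted p = 0.00269). The proteases of this list thus moved in both directions. CTSL, a lysosomal protease, had a log2 ratio of -0.49 (adjusted p = 0.0211) near the fold threshold. Its signals lay between 3.75 and 4.42, within the range of the oocyte markers (1.51 to 4.46), of which only NLRP5 exceeded 3.65. Its call was lost under most alternatives, including 5 of the 6 fits without 1 array. The log2 ratio of CTSL lay between -0.58 and -0.44 over those 6 fits.

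Of 23 measured genes listed as inducers and regulators of cumulus expansion, EREG and RUNX2 rose, TNFAIP2 fell and 20 did not pass. A role of TNFAIP2 in expansion is not stated in the sources used here. EREG, an EGF-like ligand that triggers expansion in mice, had signals of 5.73, 5.73 and 5.64 in LY294002 samples and 4.11, 4.45 and 4.67 in DMSO samples (log2 ratio 1.29, SE 0.14, adjusted p = 0.00277). RUNX2, a transcription factor of luteinizing granulosa cells, had a log2 ratio of 0.63 (SE 0.06, adjusted p = 0.00212), and TNFAIP2, a TNF-inducible gene, one of -0.85 (SE 0.07, adjusted p = 0.00115). The related ligand gene AREG had signals between 2.21 and 2.60 in LY294002 and between 2.35 and 2.81 in DMSO (adjusted p = 0.653). PTGS2, the prostaglandin synthase that mice need for expansion, had signals of 8.07, 8.10 and 8.02 in LY294002 and 7.70, 7.72 and 7.78 in DMSO, a log2 ratio of 0.33 (adjusted p = 0.0177) under 1.4-fold. In this list, 7 higher and 4 lower genes had unadjusted p-values under 0.05. Besides TNFAIP2, the lower ones were LHCGR (log2 ratio -0.53, adjusted p = 0.0552), IL6 (-0.40, 0.0501) and GREM1 (-0.41, 0.111). The signals of LHCGR and IL6 lay within the range of the oocyte markers. Over the 93 measured genes of these lists and the mitosis list, 6 rose and 9 fell, where 2.58% of all probes rose and 3.38% fell. All probes include those without a symbol, so the background is not like the lists of named genes. When only the 18457 probes with 1 symbol were fitted, 1349 of them passed, and 6 list genes rose and 11 fell.

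**Figure D4:**
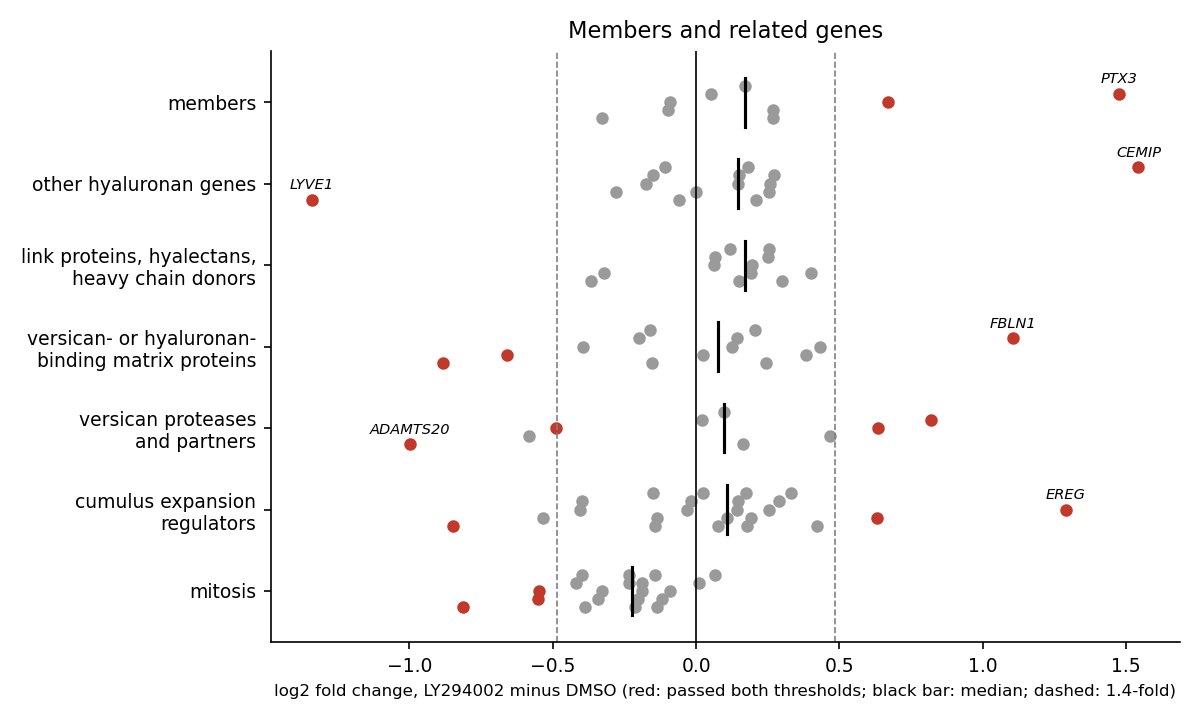
Log2 fold change, LY294002 minus DMSO (x axis), of the 9 members and of 6 lists of related genes (rows), with 1 point per gene, red where both thresholds were passed, a black bar at the median and the 1.4-fold threshold dashed. The medians lie between 0.08 and 0.17 for the members and 5 of the lists and at -0.22 for the mitosis genes. PTX3, CEMIP, FBLN1 and EREG lie above 1, and LYVE1 lies at -1.34.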

How the data were processed

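The authors hybridized RNA of 3 LY294002 and 3 DMSO samples, each to its own Bovine Gene ST array. They deposited RMA signals on the log2 scale, rounded to 2 decimals. The RMA version and the genome build are not given in the sources used here, so no coordinates are printed. Of 24415 probes, 18457 had 1 symbol in the platform table, 688 several and 5270 none, and 17996 of those with 1 symbol matched RefSeq by gene ID, which was used for names and gene order. The arrays had medians between 4.98 and 5.01, and the median probe SD was 0.10 in LY294002 and 0.11 in DMSO. The number of arrays limits the precision. The groups were compared with limma 3.58.1 (lmFit, then eBayes) under R 4.3.3 on all probes without covariates, using Benjamini-Hochberg adjustment over all probes. The script was tested on simulated data. A list gene with several probes was represented by its brightest.

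The members and lists were chosen with earlier results of these data known. The text names all 9 members and, of each list, the genes that passed and otherwise the 3 with the lowest adjusted p. For each member that passed, the 3 probes most like it by Pearson's r are also named. ITIH1, ITIH3, ITIH5, MKI67, UGDH, HYAL1, EZR, AREG, PTGS2, LHCGR, IL6, GREM1 and the marker genes were named after their values were seen. As alternatives, each array was left out in turn, thresholds were changed, variance moderation was dropped or fitted robustly with a trend, and the replicate number entered as a block. Arrays were also weighted, centred on medians or quantile normalized, and the dimmest 25% of probes, or those without 1 symbol, were removed. Of 18 other genes of hyaluronan metabolism listed, 3 had no probe of a single symbol, of 26 inducers 3 and of 24 mitosis genes 4.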

Additional observations from a re-analysis of the deposited data

How the results depend on the processing

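For the 9 members, 152 values under the alternatives were compared with the reported ones, and 147 kept their direction and their side of the thresholds. CD44 lost its call at an adjusted p under 0.01 and at a fold change of at least 2, so the members that rose then numbered 1 each time. HMMR passed at a fold change of at least 1.2, as 1 member that fell. The log2 ratio of HAS2 changed sign, to 0.01 without LY294002 replicate 3 and to 0.037 without DMSO replicate 2, within a range of -0.21 to 0.037 over the fits without 1 array. HAPLN1 was not tested without the dimmest probes. Leaving out 1 array gave 2 members that rose and 0 that fell each time, and between 1235 and 1372 probes in all, compared with 1454. A fold change of at least 1.2 gave 3133 probes, and one of at least 2 gave 266. In the lists, 11 genes rose and 16 fell at 1.2-fold, and 3 rose and 1 fell at 2-fold, compared with 6 and 9. Without 1 array, 6 to 7 rose and 7 to 9 fell.

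The replicate numbers are not stated to pair samples, and the deviations of same-numbered samples correlated at between -0.04 and -0.02 over all probes. With the replicate number as a block, 1252 probes passed, and 2 members rose and 0 fell, as without it. CTSL (adjusted p = 0.0609) and PLK1 (0.0566) lost their calls with the block, and the adjusted p of HMMR was 0.0762.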
